A study of Homo sapiens with 12 samples.

Results

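The Notch genes described here are 10 genes chosen by symbol, namely the receptors NOTCH1, NOTCH2 and NOTCH3, the ligands JAG1, JAG2 and DLL1, the receptor-modifying enzyme LFNG, the DNA-binding factor RBPJ and the target genes HES1 and HEY1. They are 10 of the 60483 gene rows of each table, and 9 of them passed a filter on low counts that kept 14822 genes; HEY1 did not. RNA was sequenced from MCF10A, a human mammary epithelial line that is immortal but not transformed, transduced with TAZ-4SA under a doxycycline (Dox)-inducible promoter. TAZ is a transcriptional co-activator held back by the Hippo kinases, and TAZ-4SA is an activated form of it. There were 4 groups of 3 libraries: No Dox, and 24, 48 and 72 h in 0.05 µg/mL Dox. All groups carried the construct and grew in the same medium with horse serum, EGF, hydrocortisone, cholera toxin and insulin. Cells given Dox without the construct, and No Dox cells of later times, were not analysed here, so TAZ-4SA, Dox and time in culture cannot be told apart. Whether the transduced line was 1 clone, and whether the 3 libraries of a group came from separate cultures, is not given in the sources used here, and p-values then measure only the spread between libraries.

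Notch receptors are membrane proteins that bind ligands of the Jagged and Delta families on neighbouring cells. Ligand pulling exposes the receptor to ADAM proteases and then to gamma-secretase, which frees an intracellular part that enters the nucleus, joins RBPJ and a Mastermind co-activator on DNA and turns on genes such as HES1 and HEY1. Fringe enzymes, of which LFNG is one, add sugars to the receptor that change which ligands it answers to. In the mammary gland the pathway is known for its part in the choice between luminal and basal epithelial fates.

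Most members were lower in Dox and none was called higher than in No Dox (a call is a Benjamini-Hochberg adjusted p under 0.05 in edgeR's quasi-likelihood test, together with a change of at least 1 on the log2 scale in either direction). At 24 h 5 of the 9 tested members fell, against 29.6% of all genes tested called and 17.7% called lower. At 48 h 6 of 9 fell, against 25.1% of all genes called and 14.4% called lower. At 72 h 5 of 9 fell, against 22.5% called and 12.3% called lower. By adjusted p alone, 6, 8 and 9 of the 9 members differed from No Dox at 24, 48 and 72 h, against 75.2%, 71.8% and 69.2% of all genes. Over the time course, in which the 3 Dox groups were tested together, 6 of 9 members were called against 35.9% of all genes. NOTCH3, JAG1, DLL1 and HES1 fell at every time, NOTCH1 fell at 24 h and 48 h, and LFNG fell at 48 h and 72 h. NOTCH2, JAG2 and RBPJ were not called at any time. Among the members, NOTCH2 was the most abundant receptor and JAG2 the most abundant ligand, and RBPJ is the common nuclear factor. The median log2 fold change of the 9 tested members was -1.40, -1.50 and -1.07 at 24, 48 and 72 h, beside medians of -0.03, -0.01 and -0.02 over all genes tested. The members were chosen with earlier results of these data known. The counts and medians set beside all genes therefore describe the members and do not test whether Notch genes fell more than others.

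**Figure D1:**
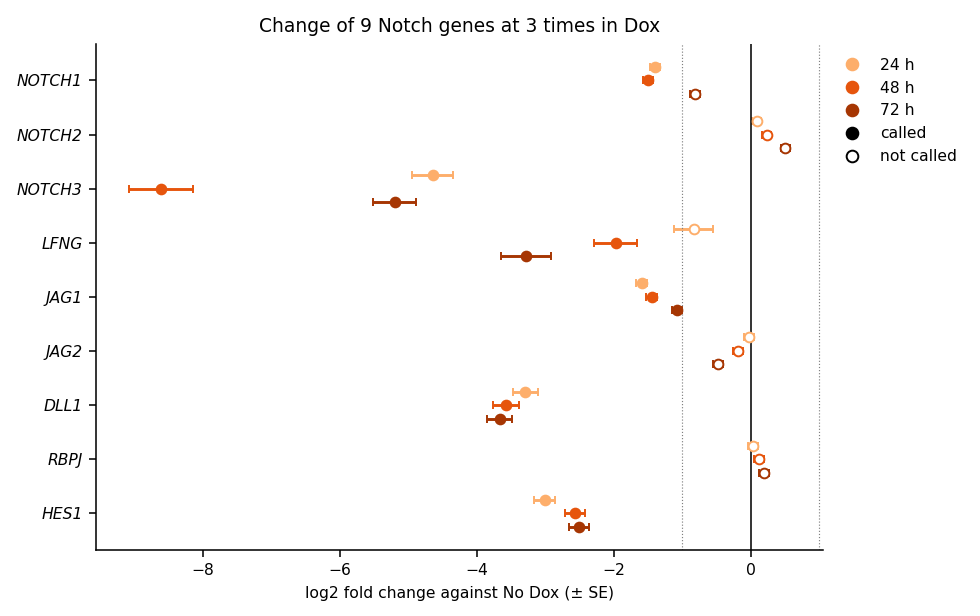
Log2 fold change against No Dox (x axis) of the 9 tested genes (y axis) at 24, 48 and 72 h, with bars for the standard error, filled points for calls and dotted lines at the fold threshold of 1. The points of NOTCH3, DLL1 and HES1 lie beyond -2 at each time, and those of NOTCH2, JAG2 and RBPJ lie within 1 of 0.

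Libraries held 15382564 to 26570132 expected counts, and levels below are given as CPM, the count scaled to library size with TMM factors. WWTR1, which encodes TAZ, rose in every Dox group, with log2 fold changes of 3.63, 3.56 and 3.79 on counts. Its effective length, the length RSEM assigns from the mix of transcripts, was 66.2%, 67.0% and 65.6% shorter in Dox, and its level corrected for length went from 26.6 TPM in No Dox to 1002, 994 and 1126 TPM, which is 37.6, 37.3 and 42.3 times as high. Transcripts of the TAZ-4SA construct and of the cells' own WWTR1 gene were not told apart in these values.

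Of 9 mammary epithelial markers, 8 had at least 1 TPM in No Dox (TPM is the authors' level corrected for transcript length) and KRT19 was listed at 0 there. Their summed level was 4851 to 5148 TPM in No Dox, 3256 to 3486 TPM at 24 h, 4742 to 4867 TPM at 48 h and 5433 to 5870 TPM at 72 h. Within the list, several markers of basal cells fell and 2 of luminal cells rose. TP63, the transcription factor that marks basal cells, fell at each time (log2 fold changes -4.13, -4.83 and -5.68), as did the basal keratin gene KRT17 (-2.19, -2.16 and -1.98). KRT5, a basal keratin gene, fell at 72 h (-1.09) and had -0.73 and -0.88 before, and KRT14, another, had 0.95, -0.01 and -0.11 and was not called. The luminal keratin genes KRT8 and KRT18 rose at each time, KRT8 by 2.07, 2.97 and 3.40 and KRT18 by 1.14, 2.09 and 2.38 on the log2 scale. KRT19, another luminal keratin gene, did not pass the filter and was not tested.

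Marker sums of other cell types also differed between groups. The fibroblast sum was 35.1 to 36.4 TPM in No Dox, 2.15 to 13.9 TPM at 24 h, 1.17 to 1.53 TPM at 48 h and 1.20 to 2.45 TPM at 72 h, with COL1A2, COL3A1 and PDGFRA at 0 throughout. The endothelial sum was 8.87 to 10.7 TPM in No Dox, lowest at 24 h (0.60 to 0.88 TPM) and 48 h (0.99 to 1.21 TPM), and 2.63 to 3.11 TPM at 72 h. The leukocyte sum was 22.1 to 31.1 TPM in No Dox, and 6.36 to 8.99, 5.35 to 6.16 and 6.58 to 8.48 TPM at the 3 times, with CD3E and MS4A1 at 0 throughout. All 3 sums were thus lower in Dox than in No Dox without overlap. The neural sum was 17.1 to 18.8 TPM in No Dox, and 12.4 to 14.4, 16.9 to 19.03 and 19.0 to 24.9 TPM at the 3 times, with SOX10 at 0 except at 72 h. Counts of mitochondrial transcripts were 5.16% ± 0.119 (SD, n = 3) of the total in No Dox and 3.22% to 3.52% in the means of the Dox groups. The part of these differences in the results below was not tested. In No Dox, 2 of 7 fibroblast, 2 of 6 endothelial and 2 of 7 leukocyte markers had at least 1 TPM. The cells were a mammary epithelial line, and these sums do not show that other cell types were present. In bulk RNA, fewer cells that express a gene and less of its RNA per cell cannot be told apart.

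Windows of 250 bases before an annotated start were read for 8 of the 10 members from RefSeq sequences (GRCh38.p14), and those of 3 genes that fell are printed to show windows with several, few and a single match to letters of the pathway's own DNA contacts. Capitals mark matches, on either strand, to TGGGAA (the core bound by RBPJ, TTCCCA on the other strand), GGAATG (TEAD, the DNA-binding partners of TAZ), TGANTCA (AP-1) and CACGNG (the class bound by HES and HEY repressors, CNCGTG on the other strand). HES1 is at chr3:194135898-194136147 on the plus strand, LFNG at its second start is at chr7:2517613-2517862 on the plus strand, and NOTCH3 is at chr19:15200996-15201245 on the minus strand.
HES1: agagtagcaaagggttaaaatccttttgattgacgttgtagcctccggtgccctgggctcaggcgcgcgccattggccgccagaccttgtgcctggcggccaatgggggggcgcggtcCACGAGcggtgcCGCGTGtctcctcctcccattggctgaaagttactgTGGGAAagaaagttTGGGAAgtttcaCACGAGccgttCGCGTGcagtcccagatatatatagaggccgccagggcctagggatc
LFNG: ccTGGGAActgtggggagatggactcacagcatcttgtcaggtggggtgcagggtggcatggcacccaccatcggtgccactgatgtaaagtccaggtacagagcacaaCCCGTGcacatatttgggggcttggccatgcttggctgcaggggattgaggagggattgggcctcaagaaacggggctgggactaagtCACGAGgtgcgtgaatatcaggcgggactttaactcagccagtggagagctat
NOTCH3: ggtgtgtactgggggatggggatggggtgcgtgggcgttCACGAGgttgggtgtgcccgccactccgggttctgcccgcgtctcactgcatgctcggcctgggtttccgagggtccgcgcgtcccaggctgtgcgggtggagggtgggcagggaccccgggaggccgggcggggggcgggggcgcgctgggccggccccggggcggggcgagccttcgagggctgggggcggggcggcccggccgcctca

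The HES1 window held 2 copies of TGGGAA on the gene's strand, 84 to 79 and 70 to 65 bases before the start, and 4 matches to CACGNG, which HES1 itself can bind. Among 35116 windows of the same length, 20.8% held TGGGAA on either strand and 0.897% held 2 or more copies on the gene's strand. The second share was not planned and takes the form seen in HES1, so it is a description and not a test. The LFNG window held 1 TGGGAA, 248 to 243 bases before the start, and 2 matches to CACGNG, and its first annotated start held none of the 4 motifs. The NOTCH3 window held 1 CACGNG and no other match, and the windows of NOTCH1 and JAG1, which also fell, held none. Members that were not called held the same letters: 1 of the 5 windows of RBPJ had 2 matches to TGGGAA on either strand and 1 match to CACGNG, and 2 matches to CACGNG stood in the JAG2 window. Of all windows, CACGNG was found in 26.7%. GGAATG, found in 11.9% of all windows, was in 0 of the 13 windows of members, and TGANTCA, found in 6.57%, was in 1 window of RBPJ. Of the 13 windows 5 are those of RBPJ, and 2 of these overlap. The paper placed most TAZ peaks at 24 h in introns or distal regions, and sequence outside the windows was not searched. A match is a run of letters and not a measured binding site.

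**Figure D2:**
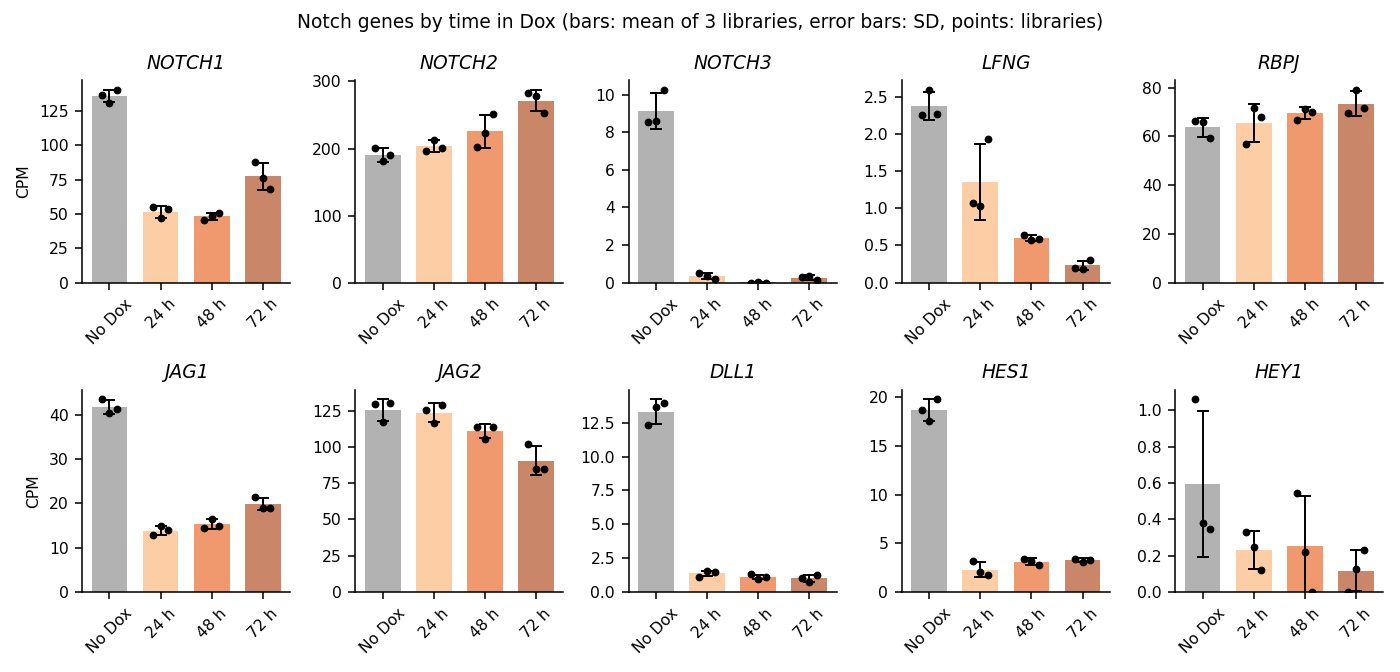
CPM (y axis, TMM-scaled, starting at 0) of each of the 10 genes in No Dox and at 24, 48 and 72 h in Dox (x axis); each bar is the mean of 3 libraries with its SD, and each point is a library. The No Dox points of NOTCH1, NOTCH3, JAG1, DLL1, HES1 and LFNG lie above all their Dox points, and those of NOTCH2 lie between 181 and 201 CPM, below its 72 h points of 253 to 282 CPM.

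Among the receptors, NOTCH1 and NOTCH3 fell while NOTCH2 did not. NOTCH1, the receptor best known for T-cell fate and epithelial differentiation (chr9:136494433-136546048, minus strand, GRCh38), had 136, 131 and 140.1 CPM in the 3 No Dox libraries. It had 54.8, 46.8 and 53.4 CPM at 24 h, 45.5, 48.4 and 50.6 CPM at 48 h, and 88.1, 76.0 and 68.4 CPM at 72 h. The 4 groups followed a dip and a partial return, in which all Dox libraries lay below No Dox and the 72 h libraries lay between No Dox and the other Dox groups without overlap. NOTCH1 fell 2.63-fold at 24 h (log2 fold change -1.40, SE 0.0778, edgeR adjusted p = 7e-13) and 2.82-fold at 48 h (adjusted p = 2.8e-13). The 72 h log2 fold change was -0.81 (SE 0.0754, edgeR adjusted p = 4.52e-09), which is inside the fold threshold. Between 48 h and 72 h the log2 difference was 0.69 (SE 0.0792, edgeR adjusted p = 1.08e-06), also inside the threshold.

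NOTCH2 (chr1:119911553-120100779, minus strand) was the member with the highest CPM among the receptors in every library. It had 201, 181 and 190.0 CPM in No Dox, 196, 213 and 201 CPM at 24 h, 202, 223 and 251 CPM at 48 h, and 282, 279 and 253 CPM at 72 h. On CPM, the 24 h libraries overlapped those without Dox and the 48 h and 72 h libraries lay above them. On TPM, which corrects for effective length, the 48 h libraries also overlapped those without Dox (22.3 to 30.3 against 23.5 to 25.9 TPM). The two-sided exact permutation p of that TPM difference was 0.4. The log2 fold changes of NOTCH2 against No Dox were 0.09 (SE 0.0667), 0.24 (SE 0.0666) and 0.51 (SE 0.0664). Their edgeR adjusted p were 0.217, 0.00308 and 8.02e-07, and all were inside the fold threshold. Under the other ways of processing listed below, the lowest 48 h value was 0.026 and the lowest 72 h value was 0.30. NOTCH2 has near-identical copies in the genome, and the SD that RSEM gave for shared reads was at most 0.106% of its count in any library. One of the copies, NOTCH2NLA, which encodes a short secreted form and was singled out after its values were seen, had log2 fold changes of 0.36, 1.01 and 1.53, the last 2 being calls (edgeR adjusted p = 1.39e-10 and 1.05e-13).

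NOTCH3 (chr19:15159038-15200995, minus strand), a receptor known from smooth muscle and mammary progenitor cells, showed the steepest loss of the 3 receptors. It had 8.52, 8.59 and 10.2 CPM in No Dox, resting on 185, 136 and 208 counts. At 24 h the libraries held 11, 7 and 3 counts, at 48 h 0, 1 and 0 counts, and at 72 h 6, 6 and 3 counts. All Dox libraries lay far below No Dox, and the 48 h libraries lay below those of 24 h and 72 h. NOTCH3 fell 25.04-fold at 24 h (log2 fold change -4.65, SE 0.297, edgeR adjusted p = 7.1e-12) and 36.8-fold at 72 h (log2 fold change -5.20, SE 0.314). At 48 h the ratio of No Dox to Dox counts, corrected for library size, was 544 with an exact 95% interval of 97.1 to 21500, because the group held 1 count (edgeR adjusted p = 5.5e-13). The interval covers counting error only.

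Between the Dox groups, 2 of 9 members were called lower from 24 h to 48 h, NOTCH3 and LFNG, against 4.51% of all genes called and 1.44% called lower. From 48 h to 72 h NOTCH3 was called higher and LFNG lower, against 3.24% of all genes called, 2.30% higher and 0.938% lower. Both calls of NOTCH3 rest on the single count at 48 h: the ratio of 24 h to 48 h was 20.9 (exact 95% interval 3.36 to 864) and that of 72 h to 48 h was 14.1 (2.16 to 592). Neither call of NOTCH3 held when the counts were corrected for effective length in edgeR (adjusted p = 0.25 and 0.251) or on log2(TPM + 1) in limma (adjusted p = 0.884 and 0.724). NOTCH3 passed the low-count filter through its No Dox libraries, and it missed the filter in fits of only the groups compared. The counts of members between Dox groups include it all the same. From 24 h to 72 h 1 of 9 members was called, LFNG, which was lower, against 12.3% of all genes called and 3.99% called lower.

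On the TPM scale, which allows genes to be compared, NOTCH2 made up 53.5% ± 2.59 (SD, n = 3) of the summed TPM of the 3 receptors in No Dox and 76.5% ± 2.48, 80.1% ± 1.17 and 74.4% ± 1.71 at 24, 48 and 72 h. The share of NOTCH1 was 42.1% ± 1.47 in No Dox and 23.3% ± 2.44, 19.9% ± 1.18 and 25.4% ± 1.48 in Dox. The libraries without Dox did not overlap those of any Dox group in either share, and each two-sided exact permutation test gave p = 0.1, the smallest that 3 against 3 allows. Summed receptor TPM was 45.7 ± 0.722 in No Dox, 31.1 ± 1.14 at 24 h, 33.4 ± 4.61 at 48 h and 43.8 ± 4.62 at 72 h. The 72 h sum overlapped that of No Dox (exact permutation p = 0.8), with a larger part of it from NOTCH2.

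**Figure D3:**
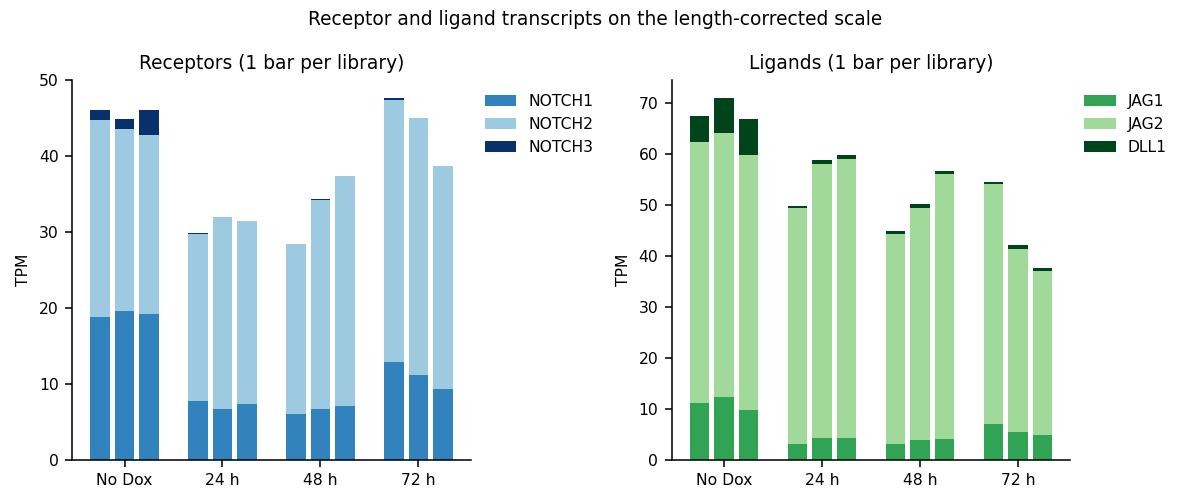
Stacked TPM (y axis, starting at 0) of the receptors NOTCH1, NOTCH2 and NOTCH3 (left) and of the ligands JAG1, JAG2 and DLL1 (right), with 1 bar per library in order of replicate number within No Dox, 24, 48 and 72 h (x axis). Receptor sums are 44.8 to 46.1 TPM in No Dox and 38.7 to 47.6 TPM at 72 h, and ligand sums are 66.8 to 70.8 TPM in No Dox and 37.5 to 54.5 TPM at 72 h.

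Of the ligands, JAG1 and DLL1 fell at every time and JAG2 was not called. JAG1 (chr20:10637684-10673999, minus strand), a Jagged ligand, had 43.5, 40.4 and 41.3 CPM in No Dox. It had 12.8, 14.8 and 14.0 CPM at 24 h, 14.4, 16.5 and 14.98 CPM at 48 h, and 21.5, 19.0 and 19.0 CPM at 72 h. All Dox libraries lay below No Dox, and those of 72 h lay above those of 24 h and 48 h. The fall was 3.01-fold at 24 h (log2 fold change -1.59, SE 0.0811, edgeR adjusted p = 1.53e-13), 2.73-fold at 48 h and 2.11-fold at 72 h (log2 fold change -1.08, SE 0.0774, edgeR adjusted p = 7.2e-11). The 72 h call sat close to the threshold: a test of the threshold itself (glmTreat in edgeR) gave adjusted p = 0.327, and on log2(TPM + 1) in limma the difference was -0.84. From 24 h to 72 h JAG1 differed by 0.52 on the log2 scale (SE 0.0853, edgeR adjusted p = 2.49e-05), inside the fold threshold, as NOTCH1 did with 0.58 (SE 0.0787, adjusted p = 1.93e-06).

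DLL1 (chr6:170282206-170306565, minus strand), a Delta ligand, had 12.3, 13.7 and 14.0 CPM in No Dox and 0.751 to 1.52 CPM over the 9 Dox libraries. The Dox groups overlapped one another and none came near No Dox. DLL1 fell 9.77-fold at 24 h (log2 fold change -3.29, SE 0.179, edgeR adjusted p = 4.89e-13), 11.9-fold at 48 h and 12.7-fold at 72 h (log2 fold change -3.67, SE 0.185). Steps between the Dox times had edgeR adjusted p of 0.191 to 0.837. Exons of FAM120B overlap DLL1 on the opposite strand, and the strand setting used for counting is not given in the sources used here. FAM120B had log2 fold changes of -0.09, -0.41 and -0.17, none of them a call.

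JAG2 (chr14:105140982-105168824, minus strand), the other Jagged ligand, had 129, 117 and 130.0 CPM in No Dox and 125, 117 and 129 CPM at 24 h, which overlapped. It had 114, 105 and 113 CPM at 48 h and 102, 84.5 and 84.6 CPM at 72 h, all below No Dox. The log2 fold changes were -0.02 (SE 0.0679), -0.18 (SE 0.0683) and -0.47 (SE 0.0687), with edgeR adjusted p of 0.782, 0.0217 and 3.32e-06, inside the fold threshold. On TPM, JAG2 made up 74.7% ± 1.49 (SD, n = 3) of the 3 ligands in No Dox and 91.9% ± 0.862, 91.6% ± 0.76 and 85.8% ± 0.602 in Dox. The share of DLL1 was 9.28% ± 1.63 in No Dox and 1.16% to 1.36% in the Dox means, and that of JAG1 was 16.1% ± 1.37 in No Dox and 6.84%, 7.23% and 12.9% in Dox. Summed ligand TPM was 68.3 ± 2.21 in No Dox, 56.1 ± 5.49 at 24 h, 50.5 ± 5.87 at 48 h and 44.7 ± 8.78 at 72 h. None of these shares or sums overlapped between No Dox and a Dox group (two-sided exact permutation p = 0.1 each, the smallest possible).

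LFNG (chr7:2512529-2529177, plus strand), the Lunatic Fringe glycosyltransferase that extends O-fucose on Notch receptors, declined from group to group. It had 2.26, 2.59 and 2.27 CPM in No Dox, 1.08, 1.03 and 1.94 CPM at 24 h, 0.646, 0.566 and 0.584 CPM at 48 h, and 0.196, 0.188 and 0.305 CPM at 72 h. No group overlapped another, and replicate 3 was the highest at 24 h. At 24 h the log2 fold change was -0.83 (SE 0.284, edgeR adjusted p = 0.012), inside the threshold; without 24 h replicate 3 it was -1.15 and a call (adjusted p = 0.00263). LFNG fell 3.92-fold at 48 h (log2 fold change -1.97, SE 0.318, edgeR adjusted p = 1.15e-05) and 9.71-fold at 72 h (log2 fold change -3.28, SE 0.367, edgeR adjusted p = 8.21e-08).

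The steps of LFNG were -1.14 on the log2 scale from 24 h to 48 h (SE 0.339, edgeR adjusted p = 0.0117) and -1.31 from 48 h to 72 h (SE 0.443, edgeR adjusted p = 0.024). The first was lost without 24 h replicate 3 (-0.82, adjusted p = 0.0907), and the second without 48 h replicate 1, 72 h replicate 1 or 72 h replicate 2 (adjusted p = 0.0705, 0.074 and 0.0665). The whole span from 24 h to 72 h was -2.45 (SE 0.393, edgeR adjusted p = 1.78e-05), and it was a call without any 1 library (-2.75 to -2.12). These values rest on 136 counts over the No Dox libraries and 76, 35 and 15 counts over those of 24, 48 and 72 h.

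RBPJ (chr4:26163455-26435131, plus strand), the DNA-binding factor that all Notch receptors share, had 66.3, 65.9 and 59.3 CPM in No Dox, 56.7, 71.8 and 67.9 CPM at 24 h, 66.7, 71.4 and 70.2 CPM at 48 h, and 69.7, 79.1 and 71.7 CPM at 72 h. The 24 h libraries spread around those without Dox, and the 48 h and 72 h libraries lay just above them. Its log2 fold changes were 0.04 (SE 0.0759), 0.12 (SE 0.0757) and 0.20 (SE 0.0753), with edgeR adjusted p of 0.68, 0.154 and 0.0222. With effective lengths in edgeR the first 2 became -0.20 and -0.11 (adjusted p = 0.079 and 0.347). No direction can therefore be given for RBPJ at 24 h or 48 h. At 72 h its TPM overlapped that of No Dox (20.0 to 26.9 against 19.5 to 21.1 TPM, two-sided exact permutation p = 0.3). Over the time course the edgeR adjusted p of RBPJ was 0.068.

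Of the target genes, HES1 fell at each time. HES1 (chr3:194136148-194138732, plus strand) encodes a repressor that also acts on its own gene. It had 18.7, 17.6 and 19.8 CPM in No Dox, 3.13, 2.01 and 1.69 CPM at 24 h, 3.43, 3.18 and 2.79 CPM at 48 h, and 3.42, 3.07 and 3.32 CPM at 72 h. All Dox libraries lay below No Dox by a wide gap, and the Dox groups overlapped one another. HES1 fell 8.05-fold at 24 h (log2 fold change -3.01, SE 0.157, edgeR adjusted p = 2.32e-13), 5.92-fold at 48 h (log2 fold change -2.57, SE 0.15) and 5.69-fold at 72 h (log2 fold change -2.51, SE 0.148, edgeR adjusted p = 2.5e-12). From 24 h to 72 h it differed by 0.50 on the log2 scale (SE 0.189, edgeR adjusted p = 0.027), inside the threshold. Its promoter window, printed above, held the paired TGGGAA letters, whose part in the fall was not tested.

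HEY1, a related repressor on chromosome 8, was too scarce for the filter. Its libraries held 23, 6 and 7 counts in No Dox, 7, 5 and 2 at 24 h, 11, 5 and 0 at 48 h, and 0, 2 and 6 at 72 h. On CPM the 48 h libraries overlapped those of No Dox, and on TPM the 72 h libraries did (two-sided exact permutation p = 0.3). Replicate 1 held most of the No Dox counts. When no filter was applied, its log2 fold changes were -1.31 (SE 0.64), -1.15 (SE 0.628) and -2.19 (SE 0.699), with edgeR adjusted p of 0.0831, 0.137 and 0.00479 over 24874 genes. Adjusted p of that fit cannot be set beside those of the main fit. For HES7 at 24 h, edgeR gave an adjusted p of 1.09e-16 without the filter and 3.01e-06 with it. No direction is therefore given for HEY1.

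On TPM, the order of the members in No Dox was JAG2 (51.0), NOTCH2 (24.5), RBPJ (20.5), NOTCH1 (19.2), HES1 (17.7), JAG1 (10.98), DLL1 (6.34), NOTCH3 (1.98), LFNG (1.61) and HEY1 (0.587). Of neighbours in that order, RBPJ and NOTCH1 overlapped, as did NOTCH3 and LFNG. At 72 h the order began with JAG2 (38.4), NOTCH2 (32.5) and RBPJ (24.0), and the first pair overlapped there. NOTCH1 (11.1), JAG1 (5.75) and HES1 (3.19) followed without overlap, and DLL1 (0.587), HEY1 (0.23), LFNG (0.207) and NOTCH3 (0.103) overlapped each with the next. HES1 thus stood above JAG1 in No Dox and below it at 24 h and 72 h, and at 48 h this pair overlapped (3.04 and 3.66 TPM). Over the 10 members and 3 times, TPM did not overlap with No Dox in 22 of 30 pairs, against 67.5% of such pairs over all genes tested.

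The effective length that RSEM gives a gene follows the mix of its transcripts, and it did not overlap with No Dox in 8 of 30 pairs of member and time, against 20.8% over all genes tested. NOTCH2 had 9297 ± 253 nt (SD, n = 3) in No Dox and 10465 ± 258, 10574 ± 366 and 10477 ± 368 nt in Dox (two-sided exact permutation p = 0.1 each, the smallest possible). RBPJ had 3725 ± 332 nt in No Dox, 4359 ± 350 and 4331 ± 190 nt at 24 h and 48 h (exact permutation p = 0.1 each), and 3874 ± 351 nt at 72 h (exact permutation p = 0.7). HES1, a short gene, had 1257 ± 12.9 nt in No Dox and 1285 to 1291 nt in the Dox means (exact permutation p = 0.2 each). For NOTCH3, No Dox replicate 3 had 3655 nt against 7548 and 8010 nt in the others, so its TPM was 3.31 against 1.35 and 1.28 although its CPM were close. The lengths of NOTCH3 at 48 h rest on at most 1 count a library.

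The other genes of the pathway came from 8 lists of 67 genes, 55 of which passed the filter. At 24 h 3 of the 55 rose and 8 fell, at 48 h 2 rose and 8 fell, and at 72 h 2 rose and 5 fell. Calls in either direction were thus 11, 10 and 7 of 55, beside 29.6%, 25.1% and 22.5% of all genes tested. Their median log2 fold changes were -0.21, -0.19 and -0.12. The members' medians of -1.40, -1.50 and -1.07 were further from 0, and no test was made of that difference.

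**Figure D4:**
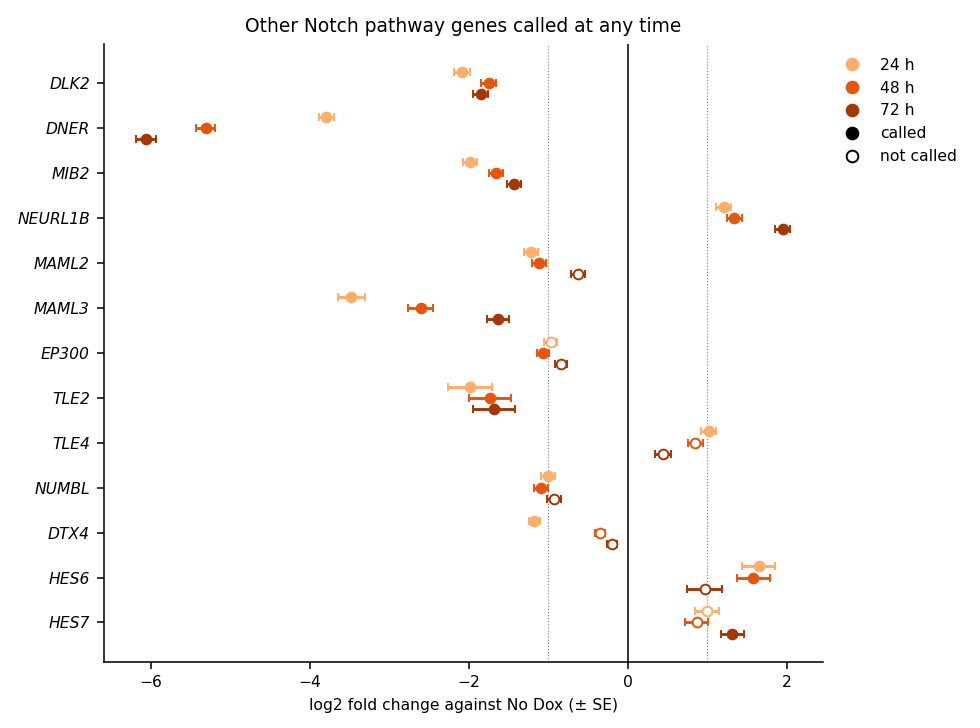
Log2 fold change against No Dox (x axis) with its standard error for the 13 other Notch pathway genes (y axis) called at 24 h, 48 h or 72 h; filled points are calls, open points are not, and dotted lines mark the threshold of 1. DNER lies furthest to the left, at -3.79, -5.31 and -6.06, and NEURL1B furthest to the right at 72 h, at 1.95.

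Among the other ligands and receptors, DNER and DLK2 fell and DLL3 was not called. DNER, a transmembrane protein with EGF repeats known from neurons and described as a Notch ligand, had 114 to 122 CPM in No Dox, 7.16 to 9.56 CPM at 24 h, 2.33 to 3.26 CPM at 48 h and 1.22 to 2.14 CPM at 72 h. The log2 fold changes of DNER were -3.79, -5.31 and -6.06, all calls (SE 0.0979, 0.115 and 0.123, edgeR adjusted p at most 1.54e-18). In No Dox it stood at 50.02 ± 1.71 TPM (SD, n = 3), beside 51.0 ± 0.961 TPM for JAG2, and at 72 h at 0.80 ± 0.244 TPM. DLK2, a relative of the Delta proteins that lacks their receptor-binding domain, fell at each time (log2 fold changes -2.08, -1.75 and -1.85). DLL3, named after its values were seen, had log2 fold changes of 0.96, 0.75 and 0.59. NOTCH4, DLL4 and DLK1 did not pass the filter.

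Ligands need ubiquitin ligases to be taken up and to pull on the receptor. MIB2 fell at each time (log2 fold changes -1.98, -1.66 and -1.43), from 57.8 to 60.9 CPM in No Dox to 14.2 to 15.8 CPM at 24 h. NEURL1B, of the Neuralized family, rose at each time (1.21, 1.34 and 1.95), from 11.3 to 12.9 CPM to 40.0 to 52.5 CPM at 72 h. MIB1, the third tested gene of the list, was not called, with log2 fold changes of -0.67, -0.31 and 0.18.

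None of the 4 tested genes of receptor glycosylation and none of the 9 receptor proteases was called. POFUT1, which adds the O-fucose that LFNG extends, had log2 fold changes of 0.39, 0.30 and 0.29, and EOGT, which adds O-GlcNAc, had -0.35, -0.32 and -0.57. APH1A, a subunit of gamma-secretase, had 0.04, -0.01 and -0.16, and ADAM10, which makes the first cut, had 0.40, 0.74 and 0.82 (SE 0.0548, 0.0546 and 0.0545, edgeR adjusted p at most 1.35e-06). These genes have the highest mean TPM of their lists over all 12 libraries. ADAM10 stood at 54.5 ± 3.51 TPM (SD, n = 3) in No Dox, below NCSTN (69.1 ± 2.73 TPM), another subunit of gamma-secretase, and at 110.4 ± 9.41 TPM at 72 h.

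Of 8 nuclear co-activators, MAML3, MAML2 and EP300 fell in at least 1 group. MAML3, a Mastermind protein that bridges Notch and RBPJ to the transcription machinery, had 12.1 to 15.1 CPM in No Dox, 1.08 to 1.36 CPM at 24 h, 2.04 to 2.72 CPM at 48 h and 3.88 to 4.84 CPM at 72 h. It fell at each time (log2 fold changes -3.48, -2.60 and -1.63), and from 24 h to 72 h it rose by 1.84 (SE 0.192, edgeR adjusted p = 5.27e-08). MAML2 fell at 24 h and 48 h (-1.21 and -1.12) and had -0.63 at 72 h. The acetyltransferase gene EP300 had -0.97, -1.07 and -0.84 and was called at 48 h, though not without 48 h replicate 1 (-0.97). MAML1, the co-activator of the same family that was not called, had -0.38, -0.45 and -0.42.

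Among 14 co-repressor genes, TLE2, of the Groucho family that HES proteins recruit, fell at each time (log2 fold changes -1.98, -1.74 and -1.68). TLE4, of the same family, rose at 24 h with a log2 fold change of 1.02, a call that was lost without No Dox replicate 1 (0.95) and with effective lengths in edgeR (0.70). Of 9 tested genes of receptor turnover, DTX4 fell at 24 h (-1.17) and had -0.34 and -0.20 later. NUMBL, of the Numb family that restrains Notch, had -1.01, -1.09 and -0.93. Its 24 h call was lost without No Dox replicate 1 or 2, 24 h replicate 2, 48 h replicate 1 or 72 h replicate 3 (-0.999 to -0.91), and without 72 h replicate 1 it was also called at 72 h (-1.005).

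Among the other HES genes, HES6 and HES7 rose. HES6, which is known to oppose HES1, had 1.47 to 2.02 CPM in No Dox and 4.77 to 5.44 CPM at 24 h, and it rose by 1.65 and 1.58 on the log2 scale at 24 h and 48 h. The 72 h value was 0.97, which became a call without No Dox replicate 2 (1.12) or 72 h replicate 2 (1.145). HES7, known from the clock of somite formation, rose by 1.32 at 72 h and had 0.996 and 0.87 before. Its 24 h value is so near the threshold that it was a call without any 1 library except No Dox replicate 2 or 3 or 24 h replicate 3. With effective lengths in edgeR, HES7 was called at 24 h and 48 h too (1.38 and 1.25, adjusted p = 4.69e-05 and 0.00014). NRARP, a feedback inhibitor that Notch turns on, was singled out after its values were seen; it had -0.87, -0.76 and -0.42 (SE 0.156, 0.154 and 0.149, edgeR adjusted p = 3.67e-05, 0.000161 and 0.0161) and was not called. HES5, HEY2 and HEYL did not pass the filter.

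For each member called in the time course, the 3 protein-coding genes with the most similar profile were found by Pearson's r of log2 CPM over the 12 libraries, among 10325 genes with a mean of at least 5 CPM. They were LENG9 (0.987), SHC1 and COQ9 (0.986 each) for NOTCH1, and ANO9, KDM6B and SNCG (0.984 to 0.983) for NOTCH3. JAG1 was most like JRK, DENND11 and C1RL (0.996 each), and DLL1 most like CAMK2B, ZC3H12A and KCTD1 (0.993 to 0.992). HES1 was most like ZNF358, NFIL3 and GM2A (0.992 to 0.990), and LFNG most like SNN, ZSCAN25 and ATXN7L3 (0.980 to 0.978). The points share the 4 groups of libraries, and many genes follow the step from No Dox to Dox, so these values describe a profile and carry no test.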

How the data were processed

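Libraries were made from poly(A) RNA with a strand-marking kit and read from both ends, and the 12 samples were grouped by the treatment in the labels. The authors used STAR with GRCh38 and GENCODE version 22, then RSEM for gene levels; the sources used here give no versions of these tools and no RSEM strand setting. Per the deposited tables, each gene has an expected count, a TPM, an effective length and an SD from shared reads. RSEM splits a read among the genes it matches, so deposited expected counts need not be whole, and they were rounded. TPM was used as deposited by the authors, for levels between genes. Names came from GENCODE version 44 by stable identifier (56321 of 60483 rows).

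Genes were filtered with filterByExpr, scaled with TMM and fitted in 1 quasi-likelihood model of 4 group means with R 4.3.3 and edgeR 4.0.16; the fitted biological coefficient of variation was 5.71%. Calls needed a Benjamini-Hochberg adjusted p under 0.05 over 14822 genes and a log2 change of 1 or more in size. SEs are those implied by the F statistic. Depth was 15382564 to 26570132 counts; 3 counts over a group equal 0.0479 to 0.0519 CPM. Intervals and floors cover counting error only, as the reads carry no molecular identifiers. The script was tested on simulated data.

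The members and lists were chosen with earlier results of these data known. Named are the members, listed pathway genes called against No Dox, the 2 genes with the highest mean TPM over all libraries of a list without calls, the 3 most similar genes per called member and WWTR1. Named outside this rule, after their values were seen, are DLL3, MIB1, MAML1, NCSTN, NRARP, NOTCH2NLA, FAM120B and the epithelial markers. Replicate numbers were not used to pair samples. Deviations of 18 same-number pairs correlated at -0.205 to 0.32, 3 of them over 0.1, which cannot settle whether the numbers mark pairs. Replicates differed by more than sampling noise (chi-square per degree of freedom 2.67 to 9.78). Alternatives were other scaling, filters, DESeq2 1.42.0, effective lengths, glmTreat, no fold threshold, only the groups compared, a replicate block, limma 3.58.1 on TPM and leaving out each library.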

Additional observations from a re-analysis of the deposited data

Results flagged for a closer look

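The change of LFNG against No Dox differed between 72 h and 24 h by -2.45 on the log2 scale (SE 0.393, edgeR adjusted p = 1.78e-05), which was tested directly as 72 h against 24 h within 1 model. The 3 libraries of 72 h held 4, 3 and 8 counts and all lay below the 3 of 24 h, which held 23, 21 and 32 counts. The cause was not tested.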

How the results depend on the processing

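Of the members' calls under each alternative, 496 of 523 were kept, 27 were lost and 0 turned direction. The lost calls were steps between Dox times of NOTCH3 and LFNG, LFNG at 48 h on log2(TPM + 1), the span of LFNG from 24 h to 72 h on log2(TPM + 1) and JAG1 at 72 h. Among other pathway genes 668 were kept, 32 lost and 0 turned. With the replicate block, members called numbered 5, 6 and 5 at 24, 48 and 72 h. They numbered 2, 2 and 1 between Dox times and 6 over the time course. Whether the numbers pair the samples is not known, and no call of a member changed.

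Leaving out 1 library gave 5 to 6, 6 to 6 and 5 to 6 members called at the 3 times, 1 to 2, 1 to 2 and 1 to 1 between Dox times, and 6 to 7 over the time course. From 24 h to 48 h, members called were 0 with effective lengths (DESeq2 or edgeR), glmTreat or limma on TPM, and 1 in a fit of only the groups compared, where NOTCH3 missed the filter. From 48 h to 72 h they were 0 with lengths in DESeq2, glmTreat or log2(TPM + 1), and 1 with lengths in edgeR, on log2(TPM + 0.1) or with only the groups compared. From 24 h to 72 h 0 were called on log2(TPM + 1). With no fold threshold, 9 were called at 72 h (2 higher, 7 lower), 6 from 48 h to 72 h and 6 from 24 h to 72 h.

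Counts over all genes at 24, 48 and 72 h were 11142, 10646 and 10252 with no fold threshold, 2865, 2417 and 2110 on log2(TPM + 1), and 2464 and 2155 with glmTreat at 48 and 72 h. From 24 h to 48 h, from 48 h to 72 h and from 24 h to 72 h they were 5414, 5742 and 8992 with no fold threshold, 177, 26 and 655 with glmTreat, and 248, 117 and 809 on log2(TPM + 1), with 288 from 48 h to 72 h on log2(TPM + 0.1). Over the time course 12786 passed with no fold threshold. The median of all genes at 72 h moved from -0.019 to 0.113 on log2(TPM + 0.1).

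Values that turned direction were not calls. They were small except for NOTCH3 from 24 h to 72 h, which was -0.56 in the main fit. With lengths in DESeq2, lengths in edgeR, log2(TPM + 1) and log2(TPM + 0.1), NOTCH2 at 24 h was -0.094, -0.092, -0.036 and -0.038, RBPJ at 24 h -0.21, -0.20, -0.15 and -0.16, RBPJ at 48 h -0.13, -0.11, -0.028 and -0.029, NOTCH3 from 24 h to 72 h 0.41, 0.044, 0.067 and 0.31, and JAG1 from 24 h to 48 h -0.12, -0.098, -0.058 and -0.071. RBPJ at 24 h was -0.020 with upper-quartile factors. JAG2 at 24 h was 0.0018 without a filter and 0.011 on both TPM scales, DLL1 from 48 h to 72 h was 0.0021 on log2(TPM + 1), and DTX4 at 72 h was 0.022 and 0.024 on the TPM scales. Leaving out 1 library gave -0.059 to 0.024 for JAG2 and -0.033 to 0.14 for RBPJ at 24 h, -0.013 to 0.16 for RBPJ from 24 h to 48 h, and -0.30 to 0.052 for DLL1 and -0.0082 to 0.13 for HES1 from 48 h to 72 h. Causes were not tested, and low counts limit NOTCH3, LFNG and HEY1.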
